A study of Arabidopsis thaliana with 20 samples.

Results

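Storage lipid lipolysis and peroxisomal beta-oxidation were followed through 10 genes, chosen by name out of the 33557 genes in the expression table. They were SDP1, PXA1 (also CTS), LACS6, LACS7, ACX1, ACX2, ACX3, ACX4, MFP2 and PED1 (also KAT2, and PKT3 in RefSeq). Their levels were not part of the rule, although earlier results of these data were known when they were chosen. RNA was taken from whole Arabidopsis thaliana seeds, which hold embryo, endosperm and seed coat together, after 20 hr on 5 media, and the genotypes were Δdella and wild type (WT), both in the Col-0 background and harvested side by side. Δdella seeds lack all 5 DELLA factors (rgl2-/- rga-/- gai-/- rgl1-/- rgl3-/-), the nuclear repressors of gibberellin (GA) responses. The media were 5 µM paclobutrazol (PAC, an inhibitor of GA synthesis), PAC with 10 µM GA, 0.7 mg/ml of a lyophilized, bacteria-free culture extract of Pseudomonas aeruginosa PAO1, the extract with 10 µM GA, and MS medium with none of these, which the labels call MOCK. Each of the 10 groups had 2 libraries from independent biological replicates, 20 libraries in all.

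Arabidopsis seeds store oil as triacylglycerol in oil bodies. SDP1, a lipase at the oil body surface, frees fatty acids, the transporter PXA1 brings them into the peroxisome, and the synthetases LACS6 and LACS7 activate them to acyl-CoA. Each turn of beta-oxidation then uses an acyl-CoA oxidase (ACX), the multifunctional protein MFP2 and a thiolase, mainly PED1 in seedlings, and the acetyl-CoA made feeds the glyoxylate cycle and, through gluconeogenesis, the sugar that supports the seedling before it photosynthesizes.

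The table gives 1 value for each gene and group, pooled over the 2 libraries, in FPKM, fragments mapped to a gene scaled by its transcript length and by the mapped fragments of the library, a scale on which levels of different genes can be set side by side. The spread between replicates is therefore unknown, no difference below carries a test, and all are descriptions of pooled values. Differences are given as log2(FPKM + 1) in the first-named group minus the second, and a gene was called where the difference reached 2-fold in either direction, among genes with at least 1 FPKM in 1 of the 2 groups. Summed FPKM per group lay between 882351 (WT on PAC) and 988764 (Δdella on extract), and the read depth behind the values is unknown. In the Δdella groups the transcripts of all 5 mutated genes sat below WT in every condition, RGL2 for example at 5.36 against 170.3 FPKM on MS. Of 4 green seedling genes, the light-harvesting gene CAB2 did not pass 0.31 FPKM in any group, whereas RBCS1A ran from 1153 to 1966 FPKM, LHCA4 from 25.6 to 38.3 FPKM and LHCA3 from 4.06 to 8.23 FPKM. The seed storage gene CRA1 was at 20.1 FPKM or more in every group. In whole seeds, fewer cells of a type and less RNA per cell cannot be told apart.

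All 10 genes were abundant in every group, and none reached a 2-fold difference in any of 19 comparisons. On MS the WT levels placed them between percentile 77.6 (PXA1) and percentile 99.5 (PED1) of the 15363 genes with at least 1 FPKM in every group. Across the 10 groups the highest value of a member was 1.19 times (MFP2) to 1.88 times (ACX3) its lowest, with a median of 1.30 times, against a median of 1.47 times over those 15363 genes. Those genes include less abundant ones and were not matched to the members in level. Within Δdella the median was 1.08 times for the members and 1.15 times for all genes, and within WT it was 1.26 times and 1.31 times. The main pattern inside this narrow range was a modestly lower level of 9 of the 10 genes in WT seeds on PAC, with ACX1 at its highest there, and a higher level of ACX3 in Δdella seeds in all 5 conditions. The plot of FPKM by group shows each of these values. The share of all genes higher in Δdella in all 5 conditions was not counted.

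**Figure D1:**
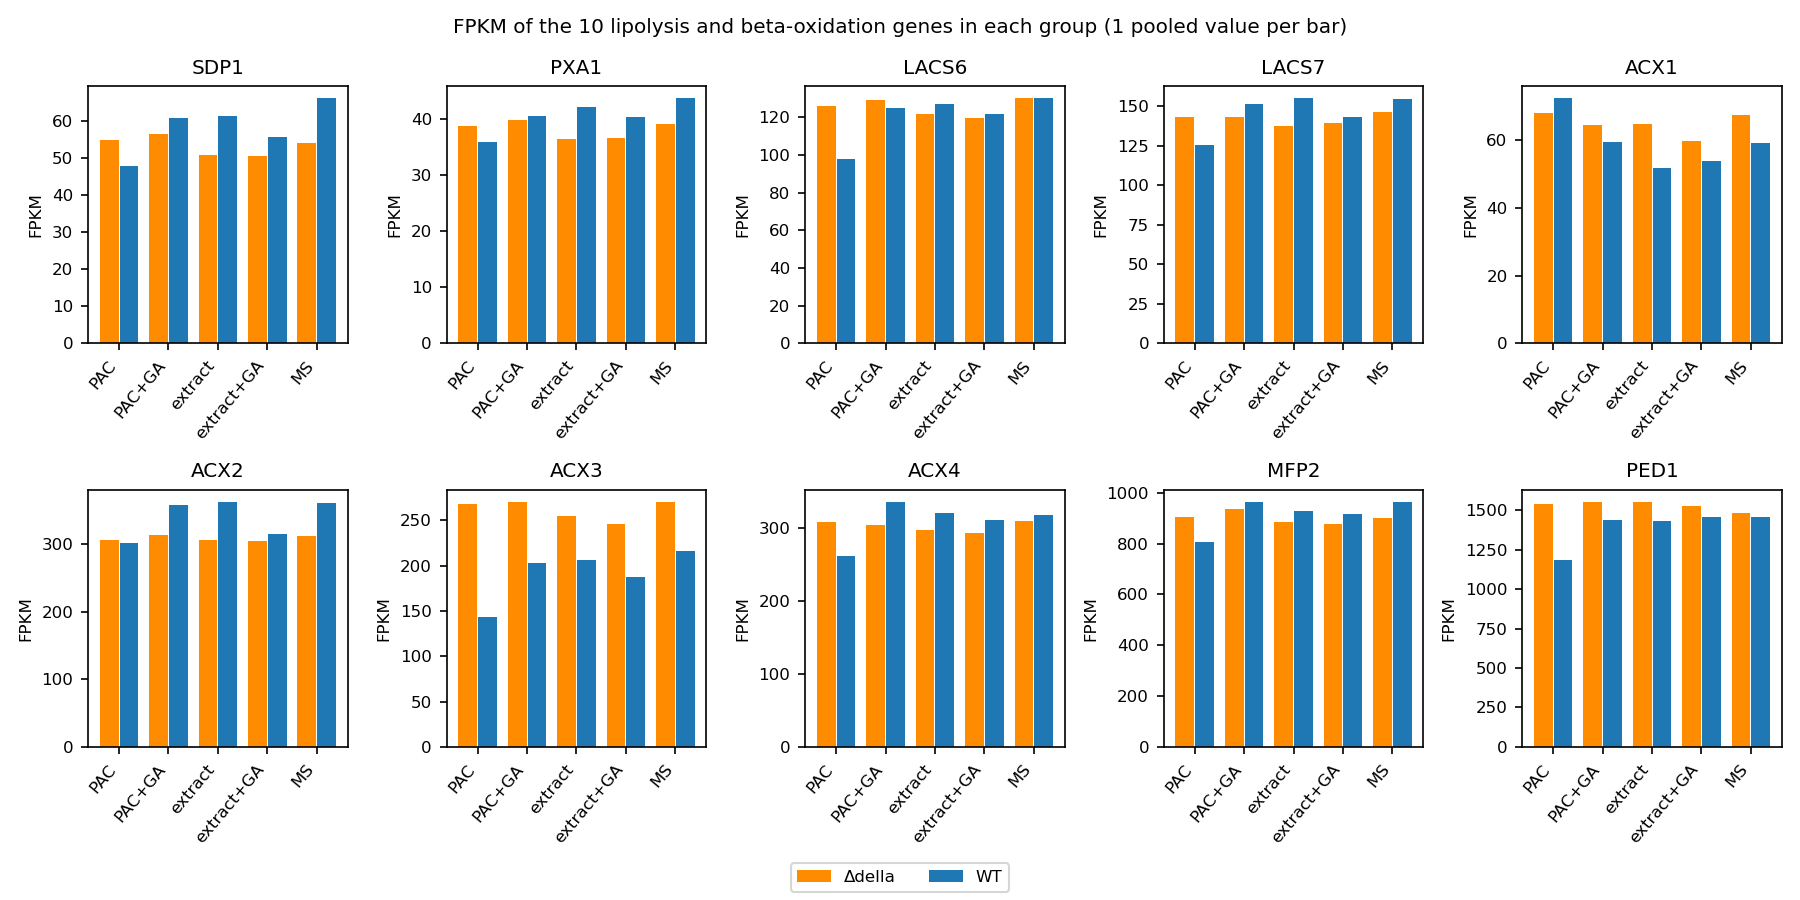
FPKM (y axis, from 0, a scale of its own in each panel) of the 10 genes on the 5 media (x axis), with Δdella in orange left of WT in blue; each bar is 1 pooled value, so no error can be drawn. In 9 panels the WT bar on PAC is the lowest WT bar. ACX1 has its highest bar there at 72.2 FPKM, and on each medium the Δdella bar of ACX3 stands above its WT bar.

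The order of levels was nearly the same in all groups. PED1 was highest everywhere, followed by MFP2, then ACX2 and ACX4, then ACX3, LACS7 and LACS6, and PXA1 was lowest everywhere. Neighbours changed places in 2 pairs: ACX4 stood above ACX2 in Δdella seeds on PAC, with 308 against 307 FPKM, and ACX1 stood above SDP1 in all 5 Δdella groups and in WT on PAC but below it in the other 4 WT groups. With no replicate values, which neighbours differ beyond their spread cannot be given. The 10 genes together made up 0.349% of all FPKM in WT seeds on PAC, against 0.407% in WT seeds on MS, and 0.372% to 0.411% in the other 8 groups.

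SDP1 (AT5G04040; chromosome 5, 1089342 to 1093179 in TAIR10, as the table gives it) encodes the lipase that starts oil breakdown. In Δdella seeds SDP1 had 55.0 FPKM on PAC, 56.7 on PAC + GA, 50.8 on extract, 50.7 on extract + GA and 54.1 on MS. In WT seeds it had 47.8 FPKM on PAC, 60.9 on PAC + GA, 61.4 on extract, 55.8 on extract + GA and 66.2 on MS. Its WT value on PAC was the lowest of all 10 groups and its WT value on MS the highest, a log2 difference of -0.46 between them. Its close relative SDP1L, at 18.4 to 23.0 FPKM, made up 24.5% to 32.4% of the summed FPKM of the pair, with the largest share in WT on PAC.

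PXA1 (AT4G39850; chromosome 4, 18488437 to 18497136) is the peroxisomal ABC transporter through which fatty acids or their CoA esters enter, and Arabidopsis seeds that lack it germinate poorly. The Δdella values of PXA1 were 38.8 FPKM on PAC, 39.9 on PAC + GA, 36.6 on extract, 36.7 on extract + GA and 39.1 on MS. The WT values were 36.0 FPKM on PAC, 40.6 on PAC + GA, 42.1 on extract, 40.5 on extract + GA and 43.8 on MS. It was the least abundant of the 10 genes and among the steadiest, with a highest value 1.22 times the lowest.

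LACS6 (AT3G05970; chromosome 3, 1786318 to 1791802) and LACS7 (AT5G27600; chromosome 5, 9742576 to 9747005) encode the peroxisomal long-chain acyl-CoA synthetases, which overlap in function in seedlings. Δdella seeds had 126 FPKM on PAC, 129 on PAC + GA, 122 on extract, 119.8 on extract + GA and 130.0 on MS for LACS6. WT seeds had 97.7 FPKM on PAC, 125 on PAC + GA, 127 on extract, 122 on extract + GA and 130.1 on MS. Apart from WT on PAC, the LACS6 values lay between 119.8 and 130.1 FPKM. In Δdella seeds LACS7 had 143 FPKM on PAC, 143 on PAC + GA, 137 on extract, 139 on extract + GA and 146 on MS. In WT seeds it had 125 FPKM on PAC, 152 on PAC + GA, 155 on extract, 143 on extract + GA and 155 on MS. LACS7 made up 52.6% to 56.2% of the summed FPKM of the 2 genes in every group.

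Acyl-CoA oxidases carry out the oxidation step, each on a range of chain lengths. ACX2 (AT5G65110; chromosome 5, 26009635 to 26012519) acts on long chains. The Δdella values of ACX2 were 307 FPKM on PAC, 313 on PAC + GA, 307 on extract, 305 on extract + GA and 313 on MS. The WT values were 302 FPKM on PAC, 358 on PAC + GA, 363 on extract, 315 on extract + GA and 361 on MS. In Δdella the 5 values stayed within 304.7 to 312.9 FPKM, a narrower range than the 302.0 to 362.8 FPKM in WT. ACX4 (AT3G51840; chromosome 3, 19225360 to 19229163) acts on short chains. Δdella seeds had 308 FPKM on PAC, 304 on PAC + GA, 297 on extract, 294 on extract + GA and 309 on MS for ACX4. WT seeds had 262 FPKM on PAC, 336 on PAC + GA, 321 on extract, 311 on extract + GA and 318 on MS. WT on PAC again held the lowest value and WT on PAC + GA the highest.

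ACX3 (AT1G06290; chromosome 1, 1922352 to 1926278) acts on medium chains and varied most among the 10. In Δdella seeds ACX3 had 267 FPKM on PAC, 270.3 on PAC + GA, 255 on extract, 246 on extract + GA and 270.2 on MS. In WT seeds it had 143 FPKM on PAC, 203 on PAC + GA, 206 on extract, 187 on extract + GA and 216 on MS. The lowest Δdella value was 246 FPKM on extract + GA, and the highest WT value was 216 FPKM on MS. The share of all genes separated by genotype in this way was not counted. ACX3 shared 12.6% of its 50-base windows within exons (237 of 1882) with another place in the genome, whereas PED1 shared 4 of 1456 and the other 8 genes shared none, so some reads of 50 bases, the length sequenced, could not be placed uniquely for ACX3. Its neighbour and close relative ACX6 was listed at 0.38 to 1.10 FPKM, and the part of shared reads in the ACX3 values was not tested.

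ACX1 (AT4G16760; chromosome 4, 9424633 to 9428895) acts on long chains and is also known in Arabidopsis, with its relative ACX5, for the beta-oxidation steps of jasmonate synthesis. The Δdella values of ACX1 were 67.7 FPKM on PAC, 64.3 on PAC + GA, 64.6 on extract, 59.7 on extract + GA and 67.4 on MS. The WT values were 72.2 FPKM on PAC, 59.2 on PAC + GA, 51.8 on extract, 53.7 on extract + GA and 58.9 on MS. ACX1 was the one member whose WT value on PAC was the highest of the WT groups. ACX5 also had its highest value in WT on PAC, at 5.40 FPKM against 3.32 FPKM in WT on MS. Over all groups, ACX2 and ACX4 each made up between 31.8% and 38.5% of the summed FPKM of 6 ACX genes, ACX3 18.3% to 28.3%, ACX1 5.48% to 9.20% and ACX5 and ACX6 less than 1% each.

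As planned for all members alike, the 250 bases before each gene's start were read for short motifs named in plant promoters. The motifs were ACGTG (the core of the abscisic acid response element), CATGCA (the RY element of seed genes) and TAACAAA (the GA response element). TTGAC (the W-box core) and CCTTTT (the pyrimidine box) were read too. ACGTG was also read inside the G-box, CACGTG, on both of its strands. Both strands were searched. ACX1 was the 1 member of 10 with the abscisic acid core, as part of a G-box that begins 92 bases before its start, while 22.9% of 27443 protein-coding promoters of the same length held the core and 6.49% held the G-box. TTGAC was found in 4 members (LACS7, ACX1, ACX2 and ACX3) and in 44.9% of all promoters, CCTTTT in 3 members (LACS6, LACS7 and ACX1) and in 25.1%. CATGCA and TAACAAA were in none of the 10 windows, and in 8.43% and 16.1% of all promoters. A match describes letters and not a site in use, and no match says only that these letters are not in this window.

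ACX1 and ACX3 were the members with the highest and the lowest log2 difference between PAC and MS in WT. The part of any motif in those differences was not tested. The windows of ACX1 and ACX3 are printed from 5′ to 3′ on the gene's strand, with the G-box and the W-box core (on either strand) in capitals. They come from the RefSeq annotation of TAIR10.1, on which all 26687 protein-coding genes compared overlap the table's own loci. The ACX1 window is chr4:9428896-9429145 on the minus strand and the ACX3 window chr1:1921958-1922207 on the plus strand, where the RefSeq start of ACX3, 1922208, lies upstream of the start in the expression table.
ACX1: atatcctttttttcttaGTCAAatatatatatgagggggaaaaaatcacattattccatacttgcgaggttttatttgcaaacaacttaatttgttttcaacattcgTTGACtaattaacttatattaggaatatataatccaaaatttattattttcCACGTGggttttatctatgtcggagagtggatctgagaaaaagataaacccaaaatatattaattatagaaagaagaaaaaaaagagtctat
ACX3: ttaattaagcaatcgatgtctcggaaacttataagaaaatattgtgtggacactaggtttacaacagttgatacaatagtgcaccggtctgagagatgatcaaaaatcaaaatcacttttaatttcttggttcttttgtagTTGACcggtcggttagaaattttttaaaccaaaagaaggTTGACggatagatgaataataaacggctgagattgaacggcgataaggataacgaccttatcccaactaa

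MFP2 (AT3G06860; chromosome 3, 2161869 to 2166349) carries out hydration and the second oxidation of the cycle. Δdella seeds had 904 FPKM on PAC, 938 on PAC + GA, 885 on extract, 877 on extract + GA and 901 on MS for MFP2. WT seeds had 808 FPKM on PAC, 963 on PAC + GA, 930.2 on extract, 916 on extract + GA and 965 on MS. It accounted for 92.9% to 95.4% of the summed FPKM of MFP2 and its relative AIM1. PED1 (AT2G33150; chromosome 2, 14047478 to 14051140) is the thiolase that releases acetyl-CoA. In Δdella seeds PED1 had 1536 FPKM on PAC, 1551 on PAC + GA, 1553 on extract, 1525 on extract + GA and 1479 on MS. In WT seeds it had 1184 FPKM on PAC, 1439.9 on PAC + GA, 1432 on extract, 1455 on extract + GA and 1456 on MS. All 5 Δdella values lay above all 5 WT values, the closest being 1479 FPKM in Δdella on MS and 1456 FPKM in WT on MS. For this separation too, the share over all genes was not counted. PED1 made up 97.1% to 98.6% of the summed FPKM of the 3 thiolase genes PED1, KAT1 and KAT5.

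The first comparison asked how these genes stood when GA synthesis was blocked. In WT seeds 9 of 10 were lower on PAC than on MS, by log2 differences of -0.26 (ACX2) to -0.59 (ACX3), and ACX1 was higher by 0.29. ACX3 was at 143 FPKM on PAC against 216 FPKM on MS, SDP1 differed by -0.46 and LACS6 by -0.41, and the other 6 lower genes lay close together between -0.30 and -0.26. Of all 16846 genes tested 49.0% were lower by any amount, and the median of the 10 genes was -0.29 against 0.0085 over all genes. The sizes were within the usual range: 7.56% of all genes passed 2-fold, and the 9 lower genes stood between percentile 9.79 (ACX3) and percentile 24.2 (ACX2) of all differences, with ACX1 at percentile 78.1. All of these values rest on 1 pool of 2 libraries in each group.

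Other markers differed between the same 2 groups. All 7 seed storage and maturation genes on the list passed 2-fold upwards, with a summed level of 8412 FPKM on PAC against 680.6 FPKM on MS. Of 4 endosperm genes, EXPA2 (an expansin of the germinating endosperm) and MAN7 (an endo-mannanase) passed 2-fold downwards, with 338 against 1579 FPKM and 20.8 against 60.6 FPKM. The other 2 did not pass 2-fold, EPR1 with 1201 against 932 FPKM (a log2 difference of 0.37) and MAN5 with 2.85 against 3.14 FPKM (-0.11). The summed level of those 4 genes was 1563 FPKM on PAC, against 2575 FPKM on MS. The 4 green seedling genes summed to 2013 FPKM on PAC against 1517 FPKM on MS, and the 3 of them that were tested were higher by 0.08 (LHCA4) to 0.41 (RBCS1A), none past 2-fold. The part of these markers in the lower lipolysis and beta-oxidation values was not tested.

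In Δdella seeds the values on PAC differed from those on MS by -0.047 (LACS6) to 0.055 (PED1), and 6 of 10 were lower, against 49.7% of all genes lower and 0.794% past 2-fold. The difference between the genotypes in the response to PAC, Δdella minus WT, was positive for the 9 genes that were lower in WT, from 0.23 (ACX2) to 0.57 (ACX3), and was -0.28 for ACX1. Of all genes with at least 1 FPKM in every group, these stood between percentiles 73.1 and 90.9, and ACX1 at percentile 21.7. The small signs within Δdella depended on the scale: with every group set to the same FPKM sum, all 10 genes were lower on PAC than on MS, none by more than 0.13. On that scale the difference between the genotypes in response stayed positive but was smaller for the 9 genes, and was larger in size for ACX1. ACX2, for example, was at -0.11 in Δdella and -0.19 in WT, and ACX1 at -0.077 in Δdella and 0.36 in WT.

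WT values on PAC + GA differed from those on MS by -0.12 (SDP1) to 0.078 (ACX4), a comparison in which 0.974% of all genes passed 2-fold. Set against PAC alone, 9 of 10 genes were higher with GA, by 0.17 (PXA1) to 0.50 (ACX3), and ACX1 was lower by a log2 difference of -0.28, where 49.7% of all genes were higher and 4.98% passed 2-fold. This comparison shares the WT PAC group with the first, as do extract against PAC in WT and Δdella against WT on PAC, so they are not independent views of it. In Δdella, PAC + GA differed from MS by -0.067 (ACX1) to 0.069 (PED1) and from PAC by -0.073 (ACX1) to 0.053 (MFP2), with 0.741% and 0.806% of all genes past 2-fold.

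The bacterial extract was compared next. In WT seeds the 10 genes on extract differed from MS by -0.18 (ACX1) to 0.01 (ACX4), with a median of -0.044. The count of lower members was 7 of 10, against 46.4% of all genes, and 1.56% of all genes passed 2-fold. The 3 higher members (LACS7, ACX2 and ACX4) were higher by 0.013 or less and became lower when every group was set to the same FPKM sum. The storage and maturation list summed to 2555 FPKM on extract against 680.6 FPKM on MS, with CRA1 at 1544 and CRU3 at 690 FPKM on extract. All 7 of its genes were higher and 4 passed 2-fold, with SESA1 at 0.26. The endosperm list summed to 3233 against 2575 FPKM, with 3 of 4 genes higher and none past 2-fold. The 3 green seedling genes tested were lower, at -0.16 (LHCA4) to -0.35 (RBCS1A). The part of these markers in the values of the 10 genes was not tested. With GA added to the extract, all 10 WT values lay below MS, from -0.24 (SDP1) to -0.0015 (PED1), where 46.3% of all genes were lower and 1.57% passed 2-fold. Extract + GA against extract alone gave -0.20 (ACX2) to 0.05 (ACX1), with 1.42% past 2-fold.

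In Δdella seeds on extract, 9 of 10 genes were lower than on MS, by log2 differences no further from 0 than -0.096 (LACS6), and PED1 was higher by 0.07, with 49.3% of all genes lower and 1.51% past 2-fold. With GA in addition, 9 of 10 were lower, down to -0.17 (ACX1), with 50.1% of all genes lower and 1.50% past 2-fold. With every group set to the same FPKM sum, PED1 was lower as well in both comparisons and the differences were larger, down to -0.23 (LACS6) on extract and -0.27 (ACX1) on extract + GA. Extract + GA differed from extract by at most 0.11 in size in Δdella, and extract from PAC by at most 0.11, with 0.789% and 1.45% of all genes past 2-fold.

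Extract and PAC were also set against each other in WT. On extract 9 of 10 genes were higher than on PAC, by 0.20 (MFP2) to 0.52 (ACX3), and ACX1 was lower by a log2 difference of -0.47, where 50.2% of all genes were higher and 6.71% passed 2-fold. ACX1 had 51.8 FPKM on extract, its lowest value of the 10 groups, and 72.2 FPKM on PAC, its highest. In the plot of differences between conditions, the rows that do not involve WT on PAC run from -0.24 (SDP1, WT extract + GA against MS) to 0.078 (ACX4, WT PAC + GA against MS). In WT on extract + GA against MS, ACX3 was at -0.21 and ACX2 at -0.19.

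**Figure D2:**
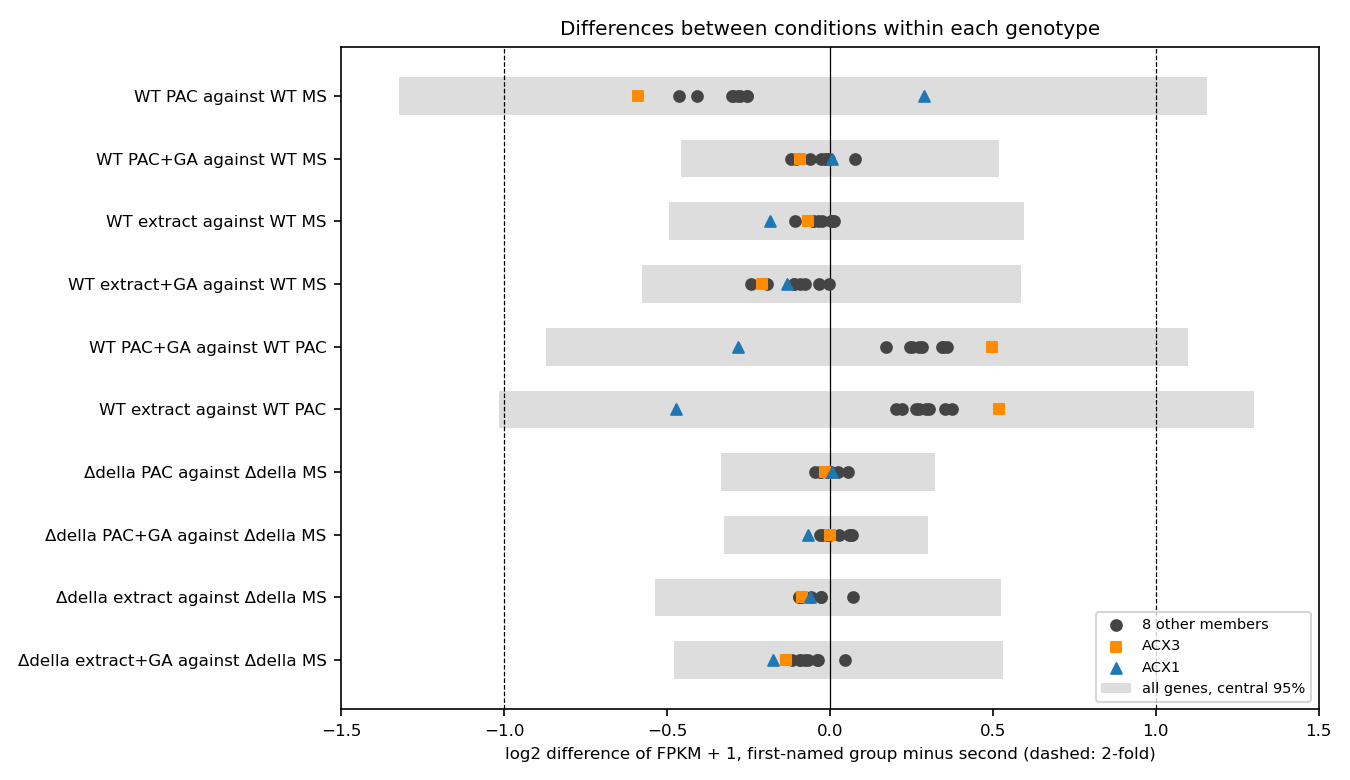
Log2 difference of FPKM + 1 (x axis) for the 10 genes in 10 comparisons within a genotype (y axis), each point 1 gene, with the central 95% of all genes tested as a grey bar and 2-fold as dashed lines. For WT PAC against WT MS 9 points lie left of 0 and ACX1 at 0.29, the sides are turned round where WT PAC is the second group, and no point reaches 2-fold.

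The genotypes were then compared on each medium. On MS, Δdella values lay below WT for 7 of 10 genes, from -0.29 (SDP1) to -0.00072 (LACS6, higher when the groups were rescaled), and ACX3, ACX1 and PED1 were higher by 0.32, 0.19 and 0.02, where 52.8% of all genes were lower and 5.95% passed 2-fold. On PAC, 9 of 10 were higher in Δdella, where 48.3% of all genes were higher and 15.9% passed 2-fold. ACX3 differed most there, by 0.89, followed by PED1 at 0.38 and LACS6 at 0.36. With every group set to the same FPKM sum, PXA1 and ACX2 became lower in Δdella and 7 of 10 stayed higher. ACX3 stood at percentile 88.5 of all genes in that comparison.

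ACX3 was higher in Δdella in all 5 conditions, also by 0.41 on PAC + GA, 0.30 on extract and 0.40 on extract + GA. On those media 7.30%, 6.50% and 3.77% of all genes passed 2-fold. PED1 was higher in Δdella in all 5 conditions too, by 0.022 to 0.38. Among all genes tested on a medium, ACX3 stood between percentile 81.7 (extract) and percentile 88.5 (PAC). PED1 stood between percentile 55.8 (MS) and percentile 75.2 (PAC). The 5 comparisons share the 2 genotypes, and the share of all genes higher in Δdella in all 5 was not counted. SDP1 was lower in Δdella on every medium except PAC, by log2 differences of -0.10 to -0.29, and higher on PAC by 0.20. ACX1 was the reverse, higher in Δdella by 0.12 to 0.31 on the 4 media other than PAC and at -0.09 on PAC. Each of these signs was the same under both rescalings of the groups, of which the one by the median ratio could move the differences little.

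**Figure D3:**
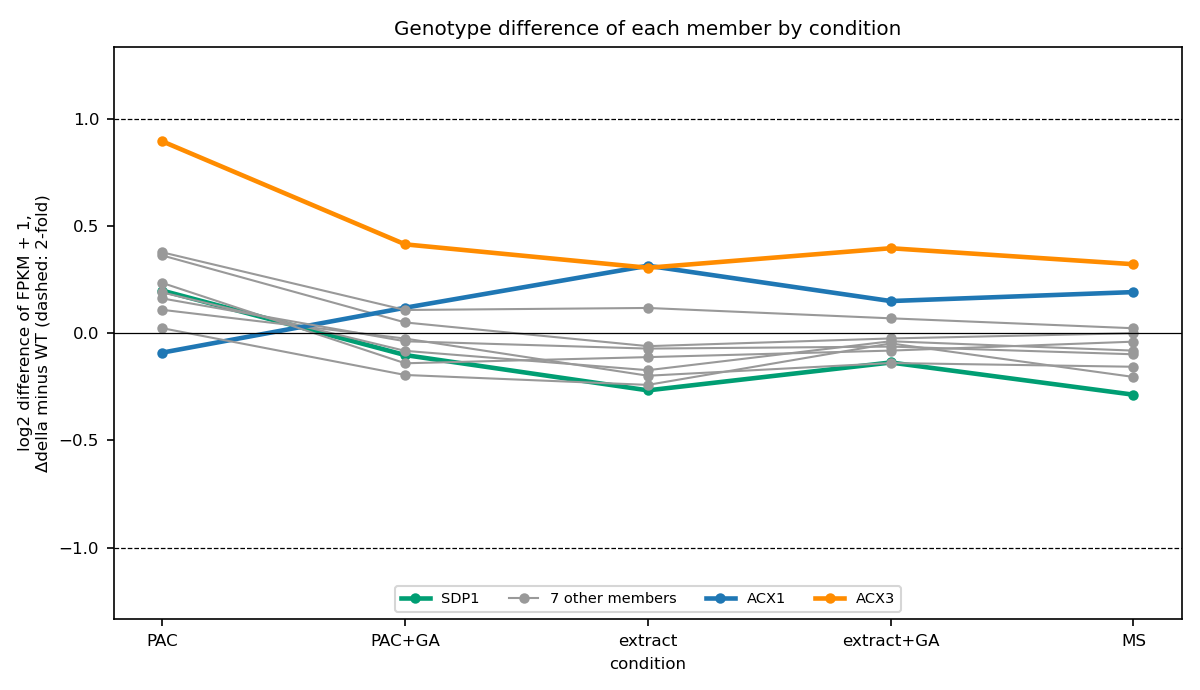
Log2 difference of FPKM + 1, Δdella minus WT (y axis), for the 10 genes on the 5 media (x axis), each point 1 gene in 1 pair of pooled groups, lines joining the points of a gene and dashed lines at 2-fold. ACX3 stays above 0 throughout and reaches 0.89 on PAC, while SDP1 and ACX1 each have PAC on the other side of 0 from the remaining media.

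The remaining genes of the pathway were read from lists. Of 13 other lipolysis and beta-oxidation genes, 12 were tested in WT on PAC against MS, where 1 passed 2-fold upwards and none downwards, 8 were higher and 4 lower (1 of them, ECH2 at -0.01, higher with every group set to the same FPKM sum), and their median was 0.14 against -0.29 for the 10 members. The gene past 2-fold was KAT5, a minor thiolase, with 9.55 FPKM on PAC against 2.75 FPKM on MS. It had 2.98 FPKM in WT on PAC + GA and 2.39 FPKM in Δdella on PAC, against 2.62 FPKM in Δdella on MS. KAT5 nevertheless made up no more than 0.784% of the summed thiolase FPKM in any group, and that sum was 1219 FPKM in WT on PAC against 1482 FPKM in WT on MS.

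At several steps the minor relative and the abundant gene lay on opposite sides of 0 in that comparison. AIM1 was higher by 0.31 where MFP2 was at -0.26, KAT1 and KAT5 by 0.15 and 1.49 where PED1 was at -0.30, and SDP1L by 0.07 where SDP1 was at -0.46. Among the oxidases, ACX1 and ACX5 were higher by 0.29 and 0.57, and ACX2, ACX3 and ACX4 lower. These pairs, and PNC2, CAT2, GLI1, CSY2, SDP6 and ICL, were picked out after their values were seen. AIM1 had 61.9 FPKM in WT on PAC against 49.6 FPKM in WT on MS, and 44.4 to 45.6 FPKM in the 5 Δdella groups.

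Of 9 peroxisomal cofactor and redox genes, 1 passed 2-fold upwards and none downwards in WT on PAC against MS. That gene was CAT3, a catalase that removes the hydrogen peroxide ACX enzymes make, with 235 against 84.6 FPKM, a log2 difference of 1.47. CAT2, the most abundant catalase, had 1668 against 1905 FPKM. In Δdella on MS CAT3 had 178 FPKM, 1.07 above WT on MS on the log2 scale. PNC2, a peroxisomal ATP carrier that supplies the LACS reaction, had 67.0 against 99.2 FPKM. None of 5 peroxin import genes passed 2-fold, all lying between -0.19 (PEX6) and 0.07 (PEX10).

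None of 7 genes of the glyoxylate cycle, glycerol use and gluconeogenesis passed 2-fold in that comparison. On the scale as reported 6 of 7 were lower, against 49.0% of all genes tested. GLI1 (glycerol kinase) differed by -0.68, CSY2 (a peroxisomal citrate synthase) by -0.60 and SDP6 (glycerol-3-phosphate dehydrogenase of mitochondria) by -0.58, next to ACX3 among the larger differences, while ICL (isocitrate lyase) was at -0.02, a value that turned positive with every group set to the same FPKM sum. The 5 oil body protein genes, whose products coat the oil that SDP1 attacks, all passed 2-fold upwards in WT on PAC, with a median of 2.08. OLEO1 had 342 FPKM on PAC against 67.7 FPKM on MS, and 218 FPKM on extract. All 5 also passed 2-fold upwards on extract, with a median of 1.32, and none of the 10 members did. On PAC, Δdella seeds had 16.1 FPKM of OLEO1, with none of the 5 past 2-fold against MS. On extract, all 5 were higher than on MS in Δdella, with a median of 0.92. Of these, 2 passed 2-fold, OLEO1 at 1.13 and OLEO2 at 1.06. The plot of gene lists sets these groups side by side.

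**Figure D4:**
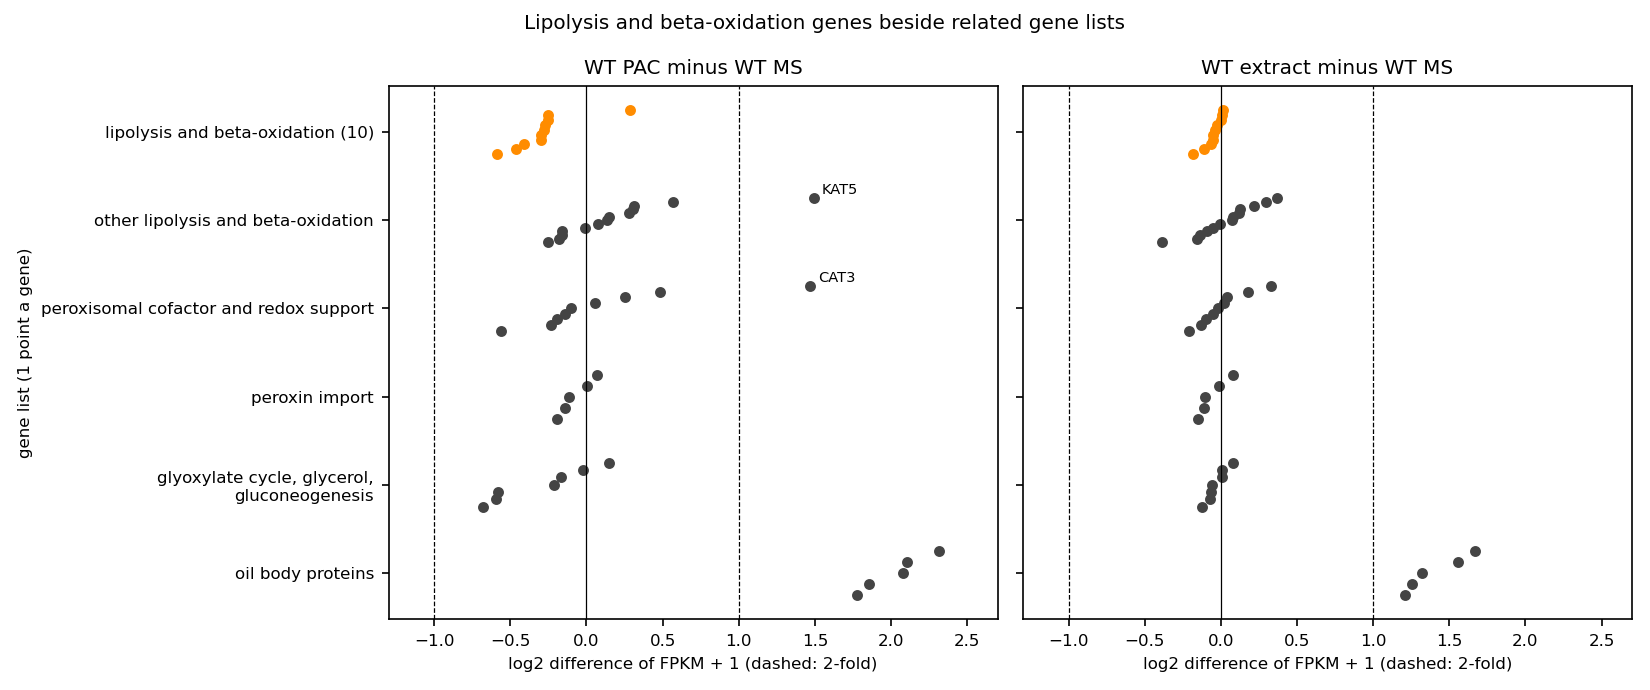
Log2 difference of FPKM + 1 (x axis) in WT for PAC minus MS (left) and extract minus MS (right), each point 1 gene, ordered within its list (y axis), with the 10 members in orange and 2-fold as dashed lines. The 5 oil body genes lie past 2-fold in both panels, KAT5 and CAT3 past it on PAC, and no member in either.

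Likeness between members was uneven. Over the 10 pooled groups, whose libraries all genes share, the 45 pairs of members had a median Pearson r of log2(FPKM + 1) of 0.66, with 25 pairs above 0.5 and 10 below 0, of which 8 involved ACX1. The same shares over all pairs of genes were not computed. The mean of the members' centred values was -0.21 in WT on PAC and between -0.041 (WT on extract + GA) and 0.079 (WT on MS) in the other groups. Without ACX1, the median over 36 pairs was 0.77, and the 2 pairs below 0 were ACX2 with ACX3 (-0.16) and ACX2 with PED1 (-0.0098). SDP1 and PXA1 were closest at 0.97, and ACX1 with LACS7 furthest apart at -0.66. Among 15353 other genes with at least 1 FPKM in every group, those most like the mean of the members' centred values were GTL1 (r = 0.98), AT5G40140 (0.98), INT1 (0.97), AT4G22758 (0.97) and EXPA8 (0.97), all lower in WT on PAC than on MS, by log2 differences of -0.38 (INT1) to -1.19 (AT4G22758). EXPA8 had 218 FPKM in WT on PAC against 477 FPKM in WT on MS. LACS6 followed that mean, which includes each member's own values, most closely among the members (r = 0.97) and ACX1 least (r = -0.34).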

How the data were processed

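Messenger RNA of whole seeds was sequenced from stranded libraries as single reads of 50 bases. Alignment by the authors used TopHat and the TAIR10 genome, and expression was estimated on Galaxy by Cuffdiff, which pooled the 2 replicates of each group. The sources used here give neither versions nor the gene annotation or strand setting. The deposited values are FPKM as the authors made them, 1 per gene and group, repeated identically in all 45 pairs of groups. The table also holds the authors' fold changes, test statistics, p-values, q-values and significance calls for each pair, which were not used.

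Groups were taken from the sample labels. From the FPKM of 33557 genes, log2(FPKM + 1) differences were computed for 19 comparisons (Python 3.11.15, numpy 2.4.6, pandas 2.3.3, matplotlib 3.10.9), among genes with at least 1 FPKM in 1 of the 2 groups, with 2-fold as the call. With pooled values a test across replicates, which was planned for the case of single values, could not be made. Counting whole reads was not possible either. Of the 500 lowest length-scaled values of single-exon genes, 22.2% to 34% lay within 0.1 of a whole multiple of a step. The step was the median of the very lowest of these values, and the share for values without a step was not worked out. The calling step was tested on simulated data. All 10 members were described, and other listed genes were to be named where they passed 2-fold. The 5 genes most like the members' mean, apart from the members themselves, were chosen by Pearson r. The members and lists were chosen with earlier results of these data known. Promoter windows came from the genome and annotation of TAIR10.1 (RefSeq), where all 10 members and 32810 of 33557 gene identifiers matched. The planned reading of protein features was not analysed here. Alternatives were the pseudocount, the filter on low values and 2 rescalings of the groups.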

Additional observations from a re-analysis of the deposited data

How the results depend on the processing

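The count of members past 2-fold was 0 in all 19 comparisons, and stayed 0 without a pseudocount, with a pseudocount of 0.1 FPKM, after rescaling by the median ratio and after rescaling every group to the same FPKM sum. In WT on PAC against MS, 9 of 10 members were lower under each of these 4 settings, with a median of -0.30 to -0.22. The median-ratio factors were small, from -0.018 (Δdella on MS) to 0.022 (WT on extract) on the log2 scale. Rescaling by them could therefore change little. Rescaling to the same sum moved the median of the members to -0.20 for Δdella on extract against MS (as reported, -0.072) and to 0.078 for Δdella against WT on PAC (as reported, 0.19). It also changed the number of lower members in 12 of 19 comparisons, in 5 of them by more than 1.5 times (4 within Δdella, and Δdella against WT on PAC with 3 lower, as reported 1). Of 190 differences of single members, 27 changed sign in at least 1 setting, none of them larger than 0.11 in size and none in WT on PAC against MS. The share of all genes past 2-fold, 0.741% to 15.9% as reported, ran from 0.375% to 8.18% with no filter on low values, from 1.18% to 20.8% with a pseudocount of 0.1 FPKM and from 0.504% to 14.8% among genes with at least 5 FPKM. No paired analysis was possible because the deposited values pool the replicates, and leaving out a replicate was not possible for the same reason.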
